A study of Mus musculus with 53 samples.

Results

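Esrrb, Tfcp2l1, Tbx3, Prdm14 and Nr5a2 are 5 transcription factor genes of the naive pluripotency network, and their loci were examined in CUT&RUN peak lists from mouse embryonic stem cells (ESCs). The genes were taken by name as 5 of the 21911 protein-coding genes of the annotation, and each locus was the gene body on mm10 (GRCm38) plus 50 kb on each side. CUT&RUN uses an antibody to bring micrococcal nuclease to a chromatin protein, and the released DNA is sequenced. The lists gave the peaks of SOX2, GATA6, H3K27ac, a mark of active enhancers and promoters, and H3K4me1, a mark of enhancers, in 35 libraries. All came from SGGC, an E14JU ESC line in which endogenous SOX2 is fused to GFP and endogenous GATA6 to mCherry, in the clones B9 and B12.

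The populations numbered 5. 2iLIF cells were grown with inhibitors of MEK and GSK3 and the cytokine LIF, and NACL cells in a defined medium with Activin A, the GSK3 inhibitor CHIR99021 and LIF. In KOSR, a medium with knockout serum replacement, clone B12 was sorted into SOX2+ cells and double-positive (DP) cells, positive for both reporters, in experiments A, A1 and B. The nEnd cells were naive extra-embryonic endoderm derived from the ESCs in RACL medium. SOX2 was profiled in 10 libraries (2 of 2iLIF, 2 of NACL, 3 of SOX2+ and 3 of DP cells) and GATA6 in 5 (3 of DP cells and 2 of nEnd). Each histone mark had 2 libraries in 2iLIF, NACL, SOX2+ and nEnd and 1 in DP cells, and both nEnd H3K4me1 libraries were from clone B9, here called B9 and B9b. A further H3K27ac and H3K4me1 library of experiment B carried labels that name both DP and SOX2+ cells, and they entered no comparison. The NACL SOX2 library of clone B12 was placed by its title, since its source name gives no medium and names IgG beside SOX2. For GATA6 in DP cells, the experiment A title carries the tag sub02, whose meaning is not given, so whether its list came from a subsample is unknown. The 2iLIF, NACL and SOX2+ libraries are called pluripotent here, and those of 2iLIF and NACL naive.

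Naive pluripotency is held by factors that bind one another's enhancers together with OCT4, SOX2 and NANOG. Esrrb and Nr5a2 encode orphan nuclear receptors, Tfcp2l1 a Grainyhead-family factor downstream of LIF, Tbx3 a T-box factor, and Prdm14 a PR-domain protein that represses FGF signalling and DNA methylation in naive cells. GATA6 drives the primitive endoderm, the extra-embryonic lineage of which nEnd is the in vitro counterpart.

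The lists held 1378 to 29623 SOX2 peaks, 1391 to 32510 GATA6 peaks, 13514 to 401853 H3K27ac peaks and 18627 to 130749 H3K4me1 peaks, and read depth is unknown. Column values were coverage on each library's own scale, so signal levels were compared only as ranks within a library. Loci were compared as peaks per 10000 listed or as the percentile of a gene among all genes. Shares of a locus inside peaks are also given and are not corrected for list length. Libraries with few peaks (DP experiment B, with 1378 for SOX2 and 1391 for GATA6) can show few regions. In these bulk libraries, binding in fewer cells and weaker binding per cell cannot be told apart. Of 12 primitive endoderm genes (Gata6, Gata4, Sox17 and others), all had a GATA6 peak in both nEnd libraries, as did 62.7% of all genes. Their median H3K27ac percentile was 92.5 and 94.2 in nEnd against 33.1 to 45.2 in the 4 naive libraries.

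Sequences of 5 elements that the results turn on are given as reference bases of GRCm38, plus strand, 5′ to 3′, 200 bases around the maximum of the strongest peak. Capitals mark GATA strings (AGATAA or AGATAG or TGATAA or TGATAG) and SOX strings (CATTGT or CTTTGT) on either strand. The first 3 elements had a GATA6 peak in at least 2 DP libraries and in at least 1 nEnd library, the fourth carried SOX2 in every SOX2 library, and the fifth carried SOX2 in the pluripotent libraries and in no DP library.
Esrrb intronic element, chr12:86480725-86480924: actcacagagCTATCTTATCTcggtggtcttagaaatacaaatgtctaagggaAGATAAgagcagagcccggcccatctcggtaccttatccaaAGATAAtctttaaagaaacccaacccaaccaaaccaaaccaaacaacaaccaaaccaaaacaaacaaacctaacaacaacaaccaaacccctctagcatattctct
Nr5a2 upstream element, chr1:136990378-136990577: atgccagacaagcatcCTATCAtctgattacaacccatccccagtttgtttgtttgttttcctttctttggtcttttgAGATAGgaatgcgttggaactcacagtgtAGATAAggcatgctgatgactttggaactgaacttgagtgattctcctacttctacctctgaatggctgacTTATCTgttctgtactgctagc
Tfcp2l1 intronic element, chr1:118649593-118649792: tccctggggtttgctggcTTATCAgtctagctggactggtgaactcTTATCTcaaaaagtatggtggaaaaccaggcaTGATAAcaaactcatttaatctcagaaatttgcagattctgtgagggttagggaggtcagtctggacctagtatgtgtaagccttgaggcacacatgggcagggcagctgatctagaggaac
Tbx3 intragenic element, chr5:119679972-119680171: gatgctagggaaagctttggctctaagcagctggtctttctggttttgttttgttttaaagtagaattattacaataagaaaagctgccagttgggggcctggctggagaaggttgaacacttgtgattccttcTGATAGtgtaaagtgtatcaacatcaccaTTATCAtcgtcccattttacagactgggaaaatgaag
Prdm14 downstream element, chr1:13085041-13085240: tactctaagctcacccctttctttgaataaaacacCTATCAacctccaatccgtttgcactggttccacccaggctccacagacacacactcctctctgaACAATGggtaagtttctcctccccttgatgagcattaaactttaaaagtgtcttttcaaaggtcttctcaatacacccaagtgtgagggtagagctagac

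The Esrrb and Nr5a2 elements each held 4 GATA strings and the Tfcp2l1 element 3, and none of the 3 held a SOX string. In the Esrrb element the first 2 GATA strings share 1 base. The Tbx3 element held 2 GATA strings and no SOX string, and the Prdm14 element held 1 of each. Over windows of the same length, 57.0% of all 72577 merged SOX2 and GATA6 regions held a GATA string and 53.8% a SOX string. Among the 1130 regions with GATA6 in all 3 DP libraries, 96.2% held a GATA string, as did 31.1% of the 4902 regions with SOX2 in all 7 pluripotent libraries, of which 72.3% held a SOX string. A string match is a description of these letters and not a binding site.

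Peaks of SOX2 and GATA6 that overlapped by at least 1 bp were merged, which gave 78 regions in the 5 loci. They numbered 16 at Esrrb, 15 at Tfcp2l1, 18 at Tbx3, 13 at Prdm14 and 16 at Nr5a2. SOX2 peaks alone made up 41 regions, GATA6 peaks alone 26, and 11 had at least 1 peak of each. Genome-wide, 54.8% of merged regions had SOX2 in at least 1 library, and the others had GATA6 alone. A factor was called kept in a population when at least 2 KOSR libraries, or both libraries of another population, had a peak, and 44 regions were kept for some factor and population, where 52.9% of merged regions were. SOX2 was kept at 13 regions in 2iLIF (10.3% genome-wide), 25 in NACL (20.1%), 23 in SOX2+ cells (19.6%) and 4 in DP cells (4.90%). GATA6 was kept at 6 regions in DP cells (4.76%) and 15 in nEnd (27.2%), with 3 regions in both (3.05%). Both factors were kept in DP cells at 1 of the 78 regions, beside 1.37% of merged regions genome-wide. Each DP call rests on few libraries: without DP SOX2 A or DP SOX2 A1, SOX2 was kept at 2 or 1 regions and both factors at 0, and without DP GATA6 A or DP GATA6 A1, GATA6 was kept at 2.

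**Figure D1:**
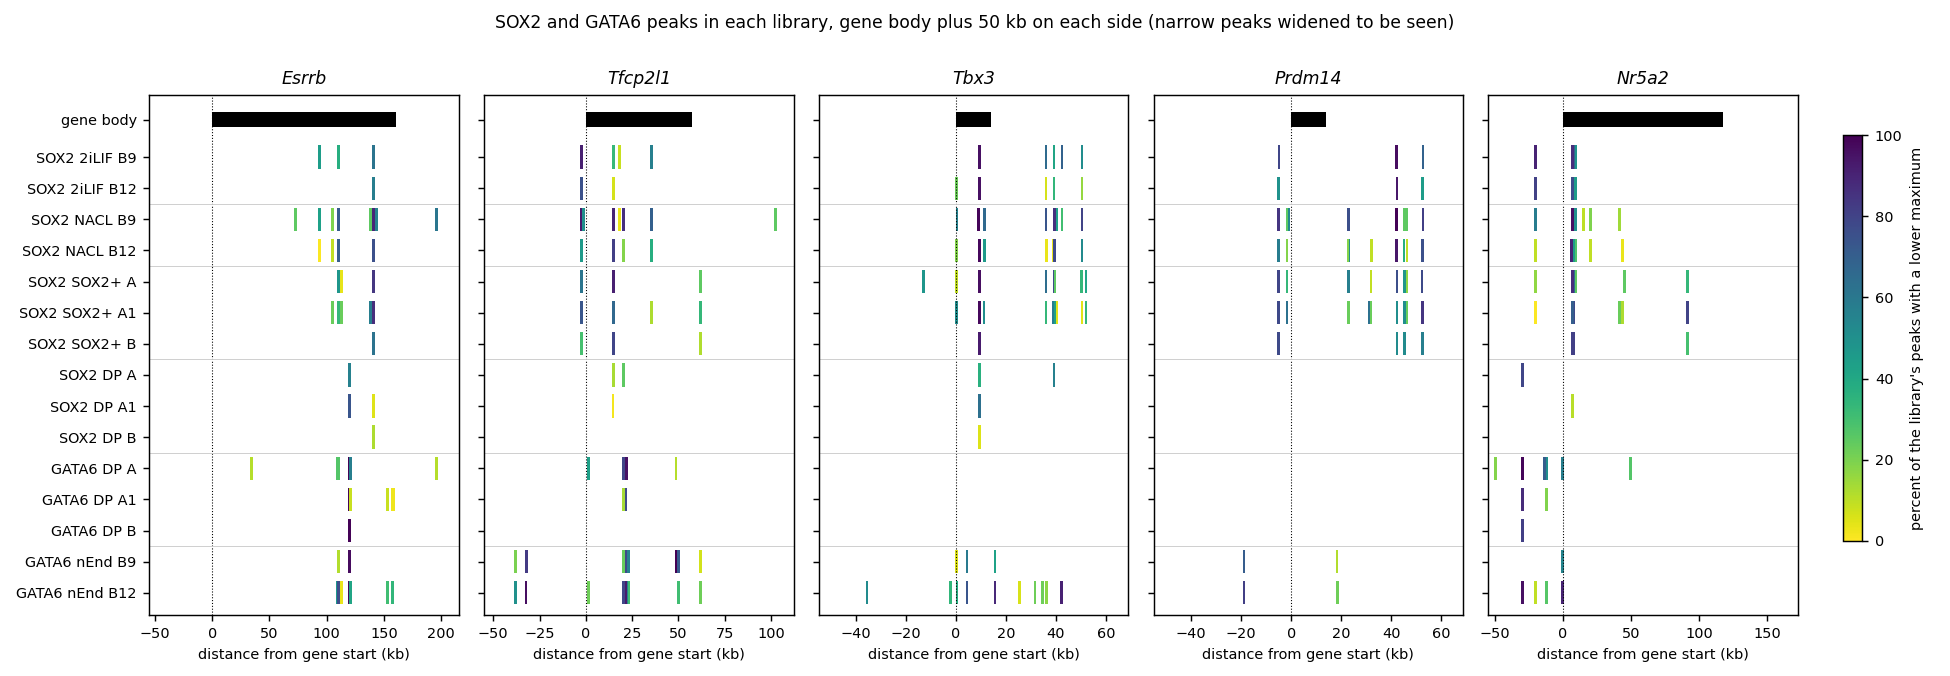
SOX2 and GATA6 peaks in each of 15 libraries (rows) by distance from the gene start in kb, in the direction of transcription, with the gene body as a black bar; colour gives the percent of the library's peaks with a lower maximum. GATA6 peaks of DP cells lie at Esrrb, Tfcp2l1 and Nr5a2 and are listed at 0 for Tbx3 and Prdm14, and SOX2 peaks of DP cells are listed at 0 for Prdm14.

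At Esrrb, GATA6 and SOX2 of DP cells met at an element that held no SOX2 peak in the pluripotent libraries. It lies in an Esrrb intron, 119.6 kb downstream of the gene start (chr12:86480305-86481180, 876 bp). The GATA6 peak there ranked 30 of 8316 peaks by maximum signal in DP A, 18 of 3821 in DP A1 and 8 of 1391 in DP B. In nEnd it ranked 678 of 24223 in B9 and 455 of 32510 in B12. GATA6 thus had a peak in all 5 libraries, as at 1.15% of merged regions. SOX2 had a peak there in DP A (rank 1744 of 4859) and DP A1 (rank 1249 of 5320) and none in DP B or in the pluripotent libraries (0 of 7). Genome-wide, 992 regions had both factors kept in DP cells, of which 70.9% had GATA6 kept in nEnd and 26.2% had no SOX2 peak in any pluripotent library. The latter are 0.358% of all merged regions.

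This Esrrb element carried H3K27ac in every population but nEnd. Peaks of the mark overlapped it in both libraries each of 2iLIF, NACL and SOX2+ cells and in the DP library, and in 0 of 2 nEnd libraries. H3K4me1 was there in both nEnd libraries, both NACL, both SOX2+ and 1 of 2 2iLIF libraries. A second intronic region, 121.1 kb from the start (chr12:86481995-86482387), had GATA6 in 2 DP libraries and 1 nEnd library and no SOX2 peak.

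The Esrrb region with SOX2 in the most libraries lay 140.8 kb from the gene start, also in an intron (chr12:86501388-86502401). SOX2 had a peak in all 7 pluripotent libraries and in DP A1 and DP B, and GATA6 in none. The share of a library's SOX2 peaks with a lower maximum ran from 57.7% in 2iLIF B12 to 89.5% in NACL B9, and was 5.04% in DP A1 and 12.1% in DP B. The DP peaks were thus among the weaker ones of their libraries. At 110.0 kb from the start, SOX2 of 5 pluripotent libraries and GATA6 of 1 DP and both nEnd libraries shared a region (chr12:86470832-86471328).

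Nr5a2, whose product binds sites like those of ESRRB, showed a GATA6 element of the same kind upstream of the gene. It lies 30.1 kb before the gene start (chr1:136990263-136990819), outside the gene, where the annotation has the snRNA gene Gm23763. GATA6 ranked 94 of 8316 in DP A, 433 of 3821 in DP A1 and 218 of 1391 in DP B, and 1338 of 32510 in nEnd B12, with no peak in nEnd B9. SOX2 had a peak there in DP A alone (rank 867 of 4859) and in 0 of 7 pluripotent libraries. Of the 1130 regions with GATA6 in all 3 DP libraries, 73.9% also had GATA6 in both nEnd libraries and 56.9% had SOX2 in at least 1 DP library. The Nr5a2 element had SOX2 in 1 DP library and GATA6 in only 1 of the nEnd libraries.

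SOX2 of pluripotent cells sat elsewhere at Nr5a2, around a start site inside the gene. The region chr1:136952722-136954434 overlaps exons and UTR of the annotation and spans a RefSeq start 6.82 kb downstream of the outer start. SOX2 had a peak there in all 7 pluripotent libraries, with 76.9% (2iLIF B12) to 95.8% (NACL B9) of the library's peaks below it, and in DP A1, with 10.6% below it. A region 20.2 kb upstream (chr1:136980331-136981022) carried SOX2 in 6 pluripotent libraries and in no DP library. At the outer start itself GATA6 had a peak in both nEnd libraries and 1 DP library, and SOX2 in none.

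Tfcp2l1 held GATA6 sites in both DP and nEnd cells, and these lay in a stretch of its introns beside a SOX2 site. At 21.8 kb from the start (chr1:118649390-118650043) GATA6 ranked 348 of 8316 in DP A and 779 of 3821 in DP A1, and 5095 of 24223 and 2332 of 32510 in nEnd B9 and B12. SOX2 had no peak there in any library. At 20.3 kb (chr1:118648031-118648488) GATA6 was in the same 4 libraries, and SOX2 in both NACL libraries and DP A. DP B listed no GATA6 or SOX2 peak in the Tfcp2l1 locus. A single H3K27ac peak spanned both GATA6 regions in each naive and nEnd library. Among the peaks of 2iLIF it ranked 21 of 232779 (B9) and 5 of 401853 (B12). The NACL ranks were 52 of 224091 and 54 of 210904, and the nEnd ranks 175 of 21394 and 400 of 20072. Those ranks are near the top of every list, nEnd included.

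SOX2 was kept in all 4 populations at a Tfcp2l1 region 14.8 kb from the start (chr1:118642263-118643186), as at 3.15% of merged regions. The share of a library's SOX2 peaks with a lower maximum was 6.34% (2iLIF B12) to 91.1% (SOX2+ A) in the pluripotent libraries, 13.2% in DP A and 1.84% in DP A1. A region 2.32 kb upstream of the start (chr1:118625368-118625886) had SOX2 in all 7 pluripotent libraries and in 0 of 3 DP libraries. In nEnd, GATA6 was kept at 7 regions of the Tfcp2l1 locus. Those 38.0 kb and 32.3 kb upstream of the start lie in introns of the neighbouring gene Clasp1. The strongest nEnd peak of the locus, rank 27 of 24223 in nEnd B9, lay 48.7 kb from the start (chr1:118676457-118676914). There nEnd B12 listed no peak, and DP A listed one at rank 6772 of 8316.

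Tbx3 carried the SOX2 site found in the most libraries of the 5 loci. The region chr5:119679169-119680371, 9.10 kb from the start and overlapping an exon, had a SOX2 peak in all 10 libraries, as 1.52% of merged regions did. Its rank was 505 of 13177 and 308 of 8203 in 2iLIF, 426 of 29623 and 320 of 17111 in NACL, and 618 of 16819, 424 of 20609 and 695 of 10513 in SOX2+ cells. In DP cells it was 2536 of 4859, 1736 of 5320 and 1212 of 1378. It was thus near the top of each pluripotent list and not of the DP lists. GATA6 had no peak at Tbx3 in any DP library. In nEnd it was kept at 3 regions, of which that 15.7 kb from the start (chr5:119686107-119686557, beyond the gene and in an intron of the lincRNA gene Tbx3os2) held the strongest peak, rank 3588 of 32510 in B12. Another of the 3 covered the gene start (chr5:119670405-119671375), where SOX2 had a peak in 5 pluripotent libraries.

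Prdm14 had SOX2 peaks in every pluripotent library and none in DP cells. The 3 regions with SOX2 in all 7 pluripotent libraries lay 52.4 kb and 42.2 kb downstream of the gene start, beyond the gene (chr1:13074251-13075212 and chr1:13084496-13085522) and 5.0 kb upstream (chr1:13131860-13132415). At the 42.2 kb region SOX2 ranked 445 of 13177 and 498 of 8203 in 2iLIF and 173 of 29623 and 985 of 17111 in NACL, and 3755 of 16819, 8763 of 20609 and 4492 of 10513 in SOX2+ cells. At this region the ranks were thus higher on the list in naive than in SOX2+ cells. At the other two the populations overlapped, with 44.9% to 81.6% of peaks below in naive and 57.3% to 84.5% in SOX2+ libraries at the 52.4 kb region, and 49.5% to 84.4% and 77.4% to 79.1% at that upstream. Of the 4902 merged regions with SOX2 in all 7 pluripotent libraries, 36.5% had none in DP cells, and in the 5 loci 4 of 8 did, the 3 of Prdm14 and that 2.32 kb upstream of Tfcp2l1. GATA6 had 2 regions at Prdm14, both in nEnd alone, 18.4 kb downstream (chr1:13108552-13109068) and 18.8 kb upstream of the start (chr1:13145709-13146228), the latter in an exon of the neighbouring gene Ncoa2.

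**Figure D2:**
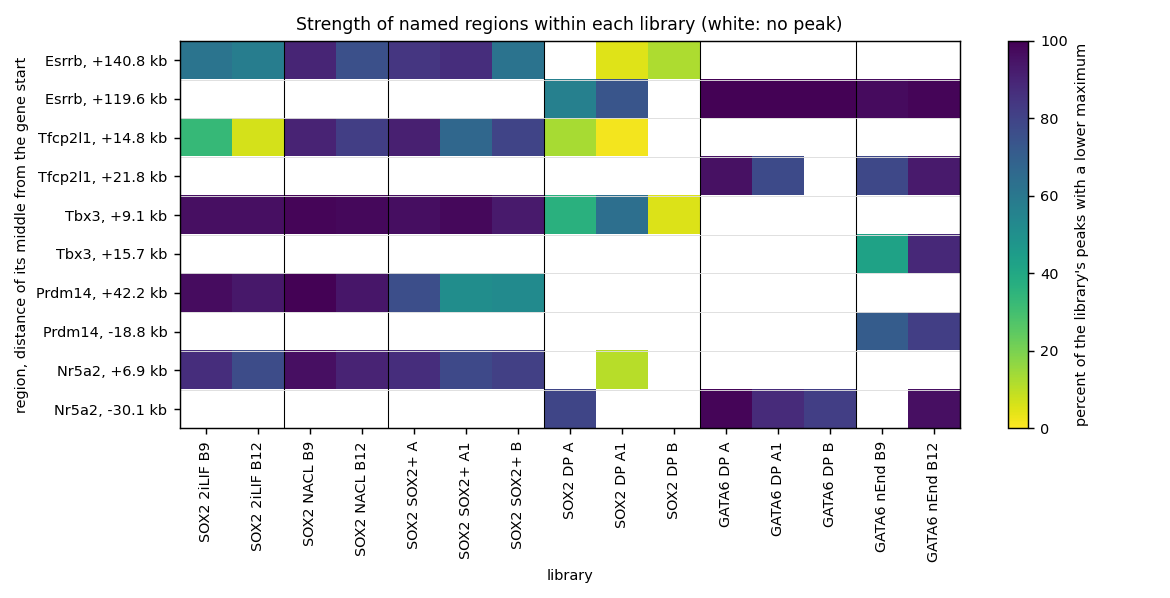
Percent of a library's peaks with a lower maximum (colour) at the regions named for each gene (rows, with the distance of the region's middle from the gene start) in 10 SOX2 and 5 GATA6 libraries (columns); white is no peak. The Esrrb element at +119.6 kb and the Nr5a2 element at −30.1 kb have GATA6 in all 3 DP libraries and SOX2 in no pluripotent library, and the Prdm14 row at +42.2 kb ends at the DP libraries.

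The first comparison asked how SOX2 occupancy of these loci in DP cells compared with that in the 7 pluripotent libraries. Per 10000 listed peaks, Prdm14 had 2.28 to 5.26 (median 3.80) in the pluripotent libraries and 0 in all 3 DP libraries. The difference was -3.83 (DP 0 ± 0, n = 3; pluripotent 3.83 ± 1.07, SD, n = 7), with 0.103% of genes lower. An exact permutation test gave p = 0.0167, the smallest that 120 splits allow, and a Benjamini-Hochberg adjusted p of 0.119 over 17421 genes. No gene passed 0.05 after adjustment, and 2688 had an unadjusted p under 0.05. The 0 of 11557 listed DP peaks allows up to 2.60 per 10000 (3 counts, counting error only), which is under the pluripotent mean and above the lowest pluripotent library. Library by library the limits were 6.17 (A), 5.64 (A1) and 21.8 (B), each above every pluripotent value.

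Nr5a2 was also lower in DP cells, with overlapping groups. It had 2.03 to 4.16 (median 3.04) per 10000 in the pluripotent libraries and 2.06, 1.88 and 0 in DP A, A1 and B, a difference of -1.85 (exact permutation p = 0.0333, adjusted 0.216). Without NACL B9, the library with the lowest pluripotent value, the Nr5a2 groups did not overlap, while without DP B the difference was -1.20 (exact permutation p = 0.111), with the stronger 50% of peaks it was -1.73 (exact permutation p = 0.2), and with equal peak numbers per library it turned to 0.346. Esrrb had 2.06, 3.76 and 7.26 in DP against 0.951 to 3.04, Tbx3 4.12, 1.88 and 7.26 against 0.951 to 6.10, and Tfcp2l1 4.12, 1.88 and 0 against 1.78 to 3.04. The highest of these DP values, 7.26, is a single peak of the 1378 in DP B. Groups did not overlap at 1 of the 5 genes, Prdm14, where 8.85% of genes were lower and 5.19% higher in every DP library. Without DP A this was 3 genes, with Nr5a2 lower and Esrrb higher, and with equal peak numbers per library it was 0. Without NACL B12, placed by its title alone, it was again Prdm14, with a difference of -3.59. Every one of the 5 genes had a SOX2 peak in all 7 pluripotent libraries, and among the 6191 genes that did, 1483 (24%, or 6.77% of all genes) had none in DP cells.

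Against SOX2+ cells of the same medium, Prdm14 and Nr5a2 were lower in all 3 DP libraries. SOX2+ cells had 4.76, 4.37 and 3.80 peaks per 10000 at Prdm14 and 4.16, 2.91 and 2.85 at Nr5a2. The difference was -4.31 at Prdm14, and the Nr5a2 means were 1.31 ± 1.14 in DP and 3.31 ± 0.739 in SOX2+ cells (SD, n = 3 each), each with exact permutation p = 0.1, the smallest that 20 splits allow, and adjusted p = 0.344 over 14998 genes. Of those genes 22.1% were lower and 6.96% higher without overlap, and 2 of 5 is within 1 gene of that share. Compared within each experiment, 3 of 5 genes moved the same way in all 3 pairs, Esrrb being higher, beside 24.2% of genes lower and 8.77% higher (smallest exact permutation p 0.25). With equal peak numbers per library no gene was without overlap, and the Nr5a2 difference turned to 2.42. These DP libraries are the same as in the comparison above, and the SOX2+ libraries are 3 of its 7. No gene could reach an unadjusted p under 0.05 here.

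**Figure D3:**
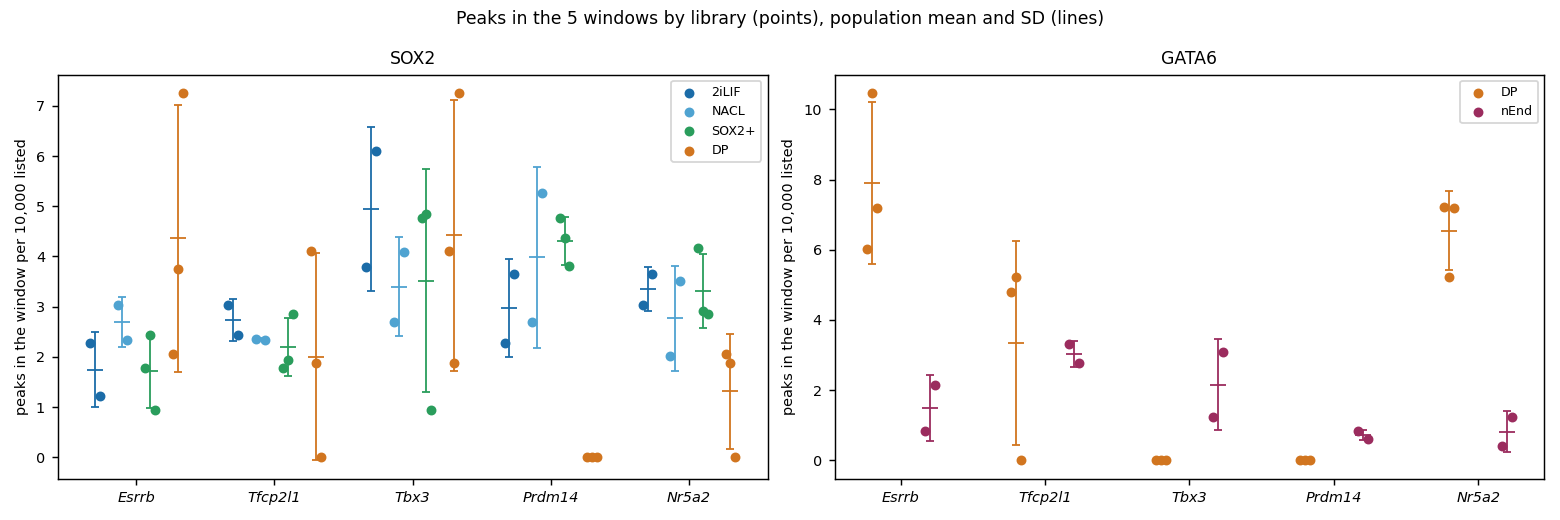
SOX2 (left) and GATA6 (right) peaks in each locus per 10000 peaks of the library, 1 point per library with the mean and SD of each population. All 3 DP libraries are at 0 for SOX2 at Prdm14, and GATA6 in DP cells exceeds nEnd at Esrrb and Nr5a2 in every library.

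GATA6 peaks took a larger share of the DP lists than of the nEnd lists at both nuclear receptor genes. Esrrb had 6.01, 10.5 and 7.19 peaks per 10000 in DP A, A1 and B and 0.826 and 2.15 in nEnd B9 and B12, and Nr5a2 had 7.22, 5.23 and 7.19 against 0.413 and 1.23. Each DP B value is a single peak of 1391, and nEnd B12 listed 7 peaks at Esrrb and 4 at Nr5a2. Both were lower in each nEnd library than in each DP library, with differences of -6.40 and -5.72 per 10000, where 6.18% of genes were lower and 44.8% higher. Tbx3 had 0 in DP cells and 1.24 and 3.08 in nEnd, and Prdm14 0 against 0.826 and 0.615. The 0 of 13528 listed DP peaks allows up to 2.22 per 10000, which is above both Prdm14 values and the Tbx3 value of nEnd B9 and below that of nEnd B12. Tfcp2l1 overlapped, with 4.81, 5.23 and 0 in DP and 3.30 and 2.77 in nEnd. The smallest exact permutation p of 2 against 3 libraries is 0.2, which the 4 genes without overlap had (adjusted 0.392 over 16798 genes). Without DP A, the library tagged sub02, the differences were -7.34 at Esrrb and -5.39 at Nr5a2 and the same 4 genes did not overlap. With equal peak numbers per library, 0 of 5 genes were without overlap.

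H3K27ac was lower in nEnd than in naive cells at the 5 loci, and was nearly absent from the lists at Esrrb and Nr5a2. The share of the Esrrb locus inside H3K27ac peaks was 32.9% and 31.8% in 2iLIF and 29.7% and 34.3% in NACL (B9 and B12), and there was no peak in either nEnd library. The Nr5a2 share was 57.1% (B9) and 70.0% (B12) for 2iLIF and 62.5% and 61.5% for NACL, against 0% and 1.24% for nEnd. At the other loci the nEnd lists held part of the mark. Tfcp2l1 had 13.9% and 44.6% in nEnd B9 and B12 against 52.4% to 72.2% in naive cells, Tbx3 14.3% and 34.3% against 43.8% to 54.2%, and Prdm14 3.86% and 22.4% against 38.9% to 55.2%. Of 20413 genes with H3K27ac in all 4 naive libraries, 22.5% had none in either nEnd library, and of the 5 genes only Esrrb did.

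The nEnd lists held 21394 and 20072 H3K27ac peaks and the naive lists 210904 to 401853, so genes were compared by their percentile among all genes. Nr5a2 was at 97.8 ± 0.450 (SD, n = 4) in naive cells and 23.2 ± 11.7 (n = 2) in nEnd, and 0.122% of the 21264 genes tested had a lower difference. Esrrb was at 71.5 ± 7.88 and 15.1 ± 0.187, Prdm14 at 90.2 ± 5.80 and 55.5 ± 20.7, Tfcp2l1 at 97.5 ± 2.18 and 77.6 ± 18.7, and Tbx3 at 91.7 ± 1.23 and 74.1 ± 12.7. The share of genes with a lower difference was 1.16% for Esrrb, 6.60% for Prdm14, 17.3% for Tfcp2l1 and 19.8% for Tbx3. Groups did not overlap at 5 of 5 genes, all lower in nEnd, where 29.9% of genes were lower and 32.3% higher without overlap. Each had exact permutation p = 0.133, the smallest that 15 splits allow (adjusted 0.214). With equal peak numbers the count was again 5, and with 10 kb flanks it was 3 (Esrrb, Tfcp2l1 and Nr5a2). Within clones, 5 of 5 were lower, beside 32.6% of genes lower and 35.4% higher (exact permutation p = 0.222, the smallest possible).

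**Figure D4:**
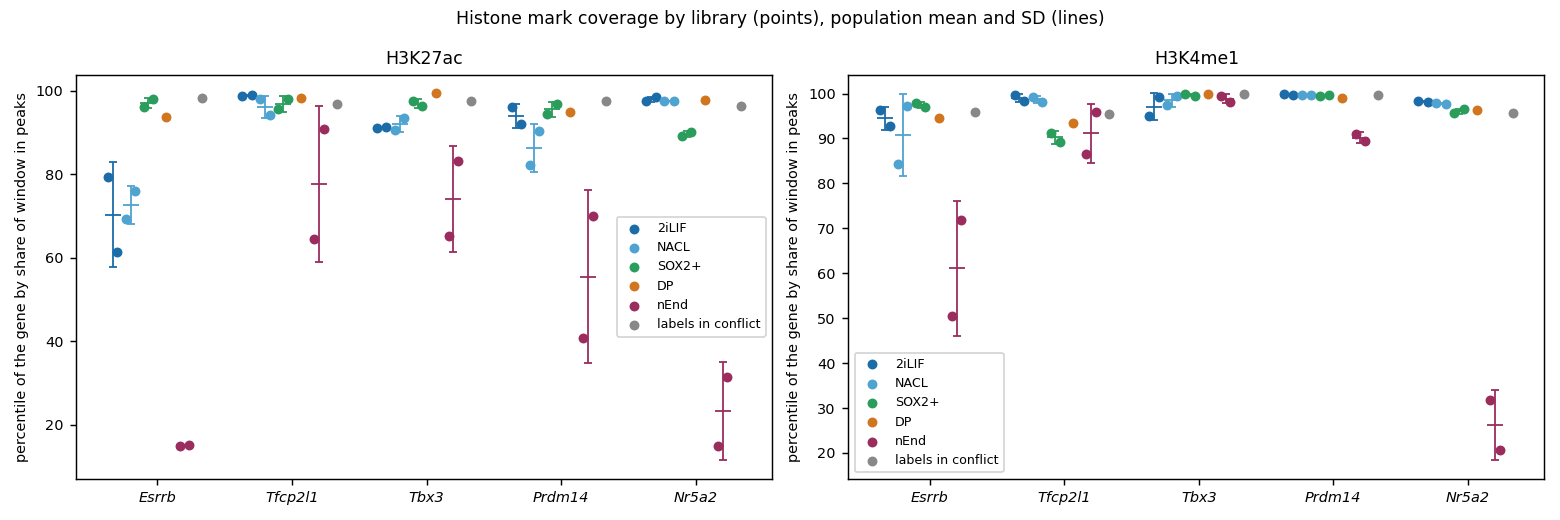
Percentile of each gene among 21911 protein-coding genes by the share of its locus inside H3K27ac (left) and H3K4me1 (right) peaks, 1 point per library, with mean and SD where a population has 2 libraries; grey points are the library of each mark with conflicting labels. The nEnd mean of Nr5a2 is 23.2 for H3K27ac and 26.2 for H3K4me1, and the H3K4me1 values of Tbx3 in nEnd lie within the naive range.

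At these loci, regions with H3K27ac in both nEnd libraries were near the genome-wide share for GATA6 and below it for SOX2. At Tfcp2l1, 7 of 7 regions with GATA6 kept in nEnd, those in Clasp1 introns included, had H3K27ac in both nEnd libraries. So did 2 of 3 at Tbx3, 1 of 2 at Prdm14, 0 of 2 at Esrrb and 0 of 1 at Nr5a2. That made 10 of 15, beside 58.5% of all 19725 such regions. Among the 50 regions with SOX2 in at least 1 pluripotent library, 43 had H3K27ac in all 4 naive libraries (55.7% genome-wide) and 4 had it in both nEnd libraries (18.9% genome-wide). Of those 4, 3 also had GATA6 kept in nEnd, and the other was the Tbx3 region with SOX2 in all 10 libraries. The mark was in neither nEnd library at 37 of the 50 (72.5% genome-wide), namely 10 of 10 at Esrrb, 10 of 11 at Prdm14, 9 of 10 at Nr5a2, 6 of 11 at Tbx3 and 2 of 8 at Tfcp2l1. The classes share regions, and the difference between them was not tested.

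**Figure D5:**
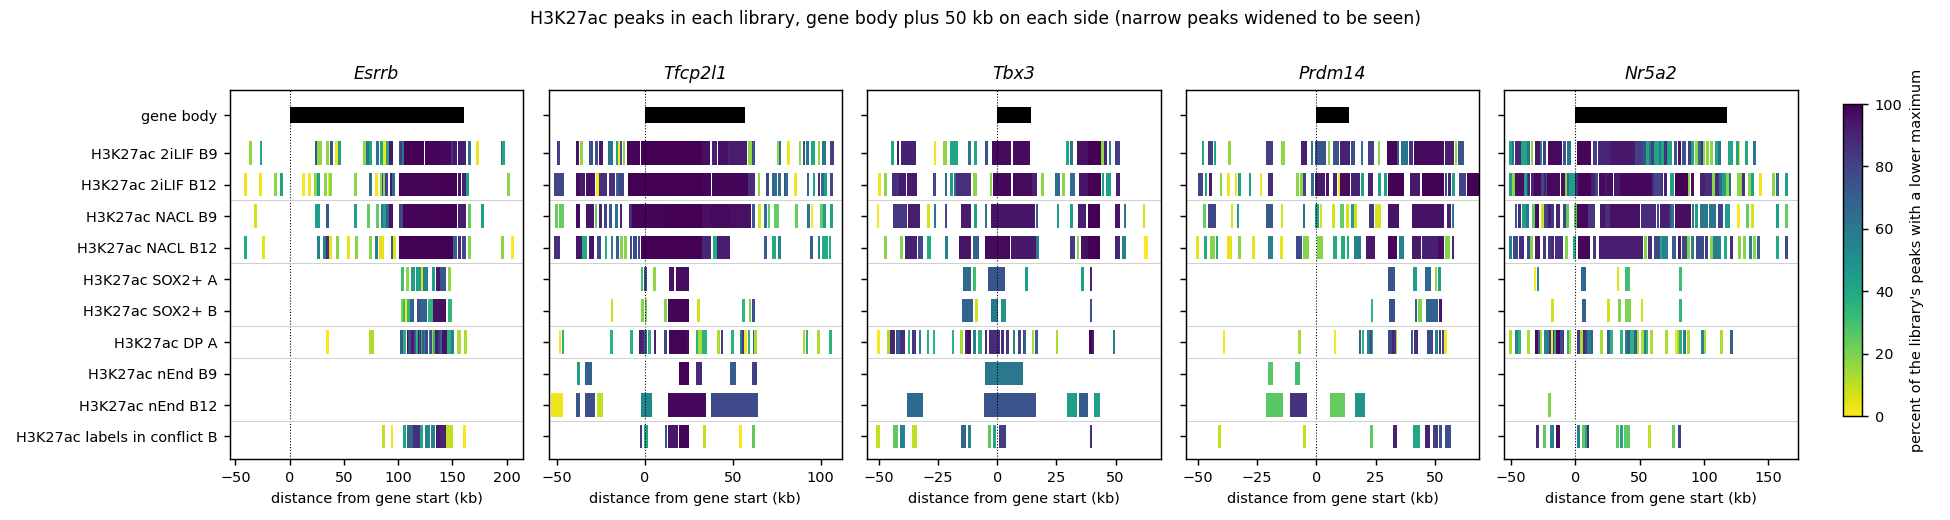
H3K27ac peaks in each of 10 libraries (rows; the last has conflicting labels) by distance from the gene start in kb, coloured by the percent of the library's peaks with a lower maximum. The naive libraries cover much of each gene, nEnd B9 and B12 list no peak at Esrrb, and at Tfcp2l1 both have peaks within the gene.

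H3K4me1 was lower in nEnd at the same genes apart from Tbx3. The Nr5a2 percentile was 98.0 ± 0.294 (n = 4) in naive cells and 31.7 and 20.6 in nEnd B9 and B9b, where 2.54% and 0% of the locus lay in peaks. Esrrb had 84.3 to 97.3 in naive cells and 50.5 and 71.7 in nEnd, Prdm14 99.7 to 99.9 against 91.1 and 89.4, and Tfcp2l1 98.1 to 99.7 against 86.5 and 95.8. Tbx3 overlapped, with 95.0 to 99.5 against 99.5 and 98.2 (exact permutation p = 0.667). Groups did not overlap at 4 of 5 genes, all lower in nEnd, with exact permutation p = 0.133 each, the smallest possible (adjusted 0.309 over 19133 genes). Of all genes tested 21% were lower and 22.2% higher. The share of genes with a lower difference was 0.152% for Nr5a2, 8.39% for Esrrb, 31.0% for Prdm14 and 34.3% for Tfcp2l1. Both nEnd libraries came from clone B9, and what this clone contributes was not tested.

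Stretches inside peaks of both marks in every library of a population summed, in kb, to the most at Tfcp2l1 and Nr5a2 in naive cells, whose loci differ in length. As a share of the locus Tfcp2l1 was followed by Prdm14, with 34.2% and 27.8% in 2iLIF against 22.9% at Nr5a2, and 24.4%, 20.4% and 17.5% in NACL. In 2iLIF they came to 53.8 kb at Tfcp2l1, 49.95 kb at Nr5a2, 40.6 kb at Esrrb, 31.6 kb at Prdm14 and 13.8 kb at Tbx3, and in NACL to 38.4, 38.2, 23.2, 23.2 and 12.8 kb. In nEnd they came to 17.2 kb at Tfcp2l1, 7.43 kb at Tbx3 and 4.12 kb at Prdm14, and to 0 at Esrrb and Nr5a2, as at 55.7% of all genes. By this measure Tfcp2l1 was at percentile 92.7 of all genes in nEnd. The 5 genes were at percentiles 92.4 to 99.8 in 2iLIF and 92.8 to 99.7 in NACL.

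Start sites differed between the genes. Within 1 kb of its start, Tfcp2l1 had H3K27ac and H3K4me1 in all naive libraries, and in nEnd H3K27ac in 1 of 2 and H3K4me1 in 2 of 2 libraries. Tbx3 had H3K27ac there in every population and GATA6 in both nEnd libraries, which 8.06% of all genes had. The outer Esrrb start had no peak of any factor or mark. At its RefSeq start 60.5 kb further in, H3K27ac was found in 3 of 4 naive libraries and in no SOX2+ (0 of 2), DP (0 of 1) or nEnd (0 of 2) library. H3K4me1 was there in both SOX2+ libraries and the DP library and in no naive (0 of 4) or nEnd (0 of 2) library. At the inner Nr5a2 start both marks were present in all naive libraries and absent from the nEnd lists. Of all GENCODE gene starts, 36.3% had H3K27ac and 6.32% H3K4me1 in both nEnd libraries.

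In KOSR, both sorted populations had high histone percentiles at all 5 genes. SOX2+ percentiles were 89.1 to 98.1 for H3K27ac and 89.3 to 99.9 for H3K4me1. The DP libraries, 1 of each mark with no replicate, gave 93.7 (Esrrb) to 99.5 (Tbx3) for H3K27ac and 93.4 (Tfcp2l1) to 99.96 (Tbx3) for H3K4me1. With 1 DP library of each mark, no p is given for DP against SOX2+ cells. Within 1 kb of the Prdm14 start, H3K27ac was listed in all 4 naive libraries and in no SOX2+ or DP library, and H3K4me1 in all of them. Of all genes, 52.1% had H3K27ac there in both NACL libraries, 14.2% in both SOX2+ libraries and 37.0% in the DP library, so an absence in KOSR is common. The libraries with conflicting labels had H3K27ac over 12.3% (Nr5a2) to 16.3% (Esrrb) and H3K4me1 over 31.8% (Tfcp2l1) to 62.0% (Tbx3) of the loci.

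The 20 other naive pluripotency genes listed for comparison, among them Nanog, Klf4, Zfp42 and Dppa3, were counted in the same way. SOX2 had a peak in both 2iLIF libraries at 5 of 5 and 18 of 20 genes (34.4% of all genes), and in all 3 SOX2+ libraries at 5 of 5 and 17 of 20 (40.4%). In DP cells SOX2 was found in at least 2 libraries at 4 of 5 and 13 of 20 (21.5%), and in all 3 at 2 of 5, Esrrb and Tbx3, and 6 of 20 (8.30%). GATA6 was found in at least 2 DP libraries at 3 of 5 and 10 of 20 (21.3%), in all 3 at 2 of 5, Esrrb and Nr5a2, and 5 of 20 (7.84%), and in both nEnd libraries at 5 of 5 and 15 of 20 (62.7%). H3K27ac was found in both SOX2+ libraries at 5 of 5 and 15 of 20 (44.9%). The Esrrb, Nr5a2 and Tfcp2l1 loci are longer than 93.9%, 90.9% and 79.7% of all such windows, and longer windows can hold more peaks. Against the pluripotent libraries, SOX2 was lower in DP without overlap at 4 of 20 (Zfp42, Dppa3, Tdh and Tet2). It was higher at 3 (Klf2, Pou5f1 and Sall4), where 8.85% of genes tested were lower and 5.19% higher. H3K27ac was lower in nEnd without overlap at 13 of 20 (29.9% of genes tested) and higher at 2, Stat3 and Socs3 (32.3%). The median difference was -17.2 percentiles, beside -34.7 for the 5 genes and 0.431 over all genes tested.

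Profiles over the 33 labelled libraries were compared by the percentile of each locus, as a description without a test. Esrrb was most like Fbxo15 (Pearson r = 0.911), Lrmp (0.894) and Slc25a13 (0.894). Nr5a2 was most like Sox2 (0.934), Chd9 (0.925) and Six4 (0.905), Prdm14 like Cdc42ep4 (0.943), Ubl3 (0.933) and Dbi (0.919), and Tfcp2l1 like Fam72a (0.927), Fkbp15 (0.908) and Wapl (0.893). Tbx3 was most like Trim61 (0.948), Apela (0.944) and Trim60 (0.938), which lie beside each other on chromosome 8 and share peaks. Within the 5 genes, Esrrb was most like Nr5a2 (0.739) and Tbx3 most like Prdm14 (0.696), while Tbx3 and Nr5a2 had 0.0565. Libraries of 1 antibody have separate lists but profile the same target, so the 33 points are not independent.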

How the data were processed

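CUT&RUN libraries of SOX2, GATA6, H3K27ac and H3K4me1 were analysed as 35 peak lists, of which 33 had a population in the labels. The 18 IgG samples had no list of their own and were not used here. Per the submitters' processing notes and the study's methods, the authors used cutadapt 1.18 for trimming, Bowtie2 2.3.4.1 for alignment to mm10 and SAMtools 1.9 and Picard 2.9.1 for filtering, and called peaks per library with SEACR. The names of the deposited lists mark those of SOX2 and GATA6 as stringent and those of the histone marks as relaxed, while the methods state the reverse, so the mode is uncertain. It bears on list length and hence on every rank, share and absence of a peak. The deposited signal columns hold whole-number coverage (total and maximum per peak) on each library's own scale, so they were used only as ranks within a library.

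Genes were the 21911 protein-coding genes of GENCODE M21 (GRCm38), with windows of the gene body plus 50 kb. Factors were compared as peaks per 10000 listed peaks, and histone marks as the percentile of window coverage among all genes, with two-sided exact permutation tests over libraries and Benjamini-Hochberg adjustment over all genes tested. Genes without a peak in the libraries of a comparison were not tested. Labels do not say whether libraries of a population are separate cultures, so p-values measure only the spread between these libraries. Pairing by clone was checked for H3K27ac, where the number is the clone, by the correlation of same-clone deviations over 21264 genes (0.195 for nEnd with 2iLIF and 0.0512 for nEnd with NACL). The genes, lists, comparisons and regions were chosen with earlier results of these data known. For each gene the regions named were those with SOX2 and with GATA6 in the most libraries, those with both factors kept in DP cells, and those with SOX2 kept in all 4 populations or in DP cells only, and other regions were added after their values were seen. Motif strings were counted in 200 bases around the maximum of the strongest peak. Python 3.11.15 with numpy 2.4.6, pandas 2.3.3, scipy 1.17.1, pysam 0.24.0 and matplotlib 3.10.9 was used, and the tests were checked on simulated data. Alternatives were other windows, equal peak numbers, stronger peaks, other measures or merging rules, and leaving out each library.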

Additional observations from a re-analysis of the deposited data

Results flagged for a closer look

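In naive cells the Nr5a2 H3K27ac percentile was 98.5 in the 2iLIF library of clone B12 and 97.5 to 97.6 in the other 3 libraries, a gap wide enough to pass Dixon's 95% limit for 4 values. Chance passes that limit in about 1 of 20 such groups, and 15 groups were examined.

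The H3K27ac library of experiment B whose labels name both DP and SOX2+ cells listed 55 peaks in the 5 loci. The H3K4me1 library of that experiment, with the same conflict, listed 117 peaks. Neither entered a comparison.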

How the results depend on the processing

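Of the counts recomputed under alternatives, 123 stayed within 1.5 times the reported count and 26 did not. With equal peak numbers per library, the genes without overlap numbered 0 for SOX2 (both comparisons) and 0 for GATA6, where the shortest list left few peaks per library. For SOX2 in DP against pluripotent cells there were 2 with the stronger 50% of peaks (Tfcp2l1 and Prdm14), 2 by coverage percentile (Prdm14 and Nr5a2), and 1 to 3 with 1 library left out, against 1 as reported. Against SOX2+ cells there was 1 within 50 kb of the start, against 2. With the replicate block (libraries paired by experiment) there were 3 (Esrrb higher), but same-experiment deviations correlated by only 0.0748 (A), 0.0465 (A1) and 0.140 (B) over genes and DP A correlated best with SOX2+ A1, so the libraries share a number and not a shown pairing. With clones as the replicate block H3K27ac gave 5. H3K27ac with 10 kb flanks gave 3, against 5. The 44 kept regions became 78 counting any 1 library, 22 with the stronger peaks and 29 with 10 kb flanks. Regions with SOX2 kept in DP cells (4) became 8 with any 1 library, 1 with every library and 1 with the stronger peaks, and 1 to 4 with 1 library left out. GATA6 kept in DP cells (6) became 17, 2 and 3, and 2 to 6. Both factors kept (1) became 3 with any 1 library, 0 with every library, and 0 to 1 with 1 left out.

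Of single-gene differences 288 kept their direction and their side of an unadjusted exact permutation p of 0.05, 9 kept their direction and rose above 0.05, 1 kept its direction and came under it, and 21 changed sign. The 9 were Prdm14 and Nr5a2 for SOX2 in DP against pluripotent cells, each with any DP library left out among other settings, and 2 DP against 7 libraries allow no p under 0.05. None of the sign changes concerned Esrrb or Prdm14. For SOX2 in DP against pluripotent cells, Tbx3 was -4.84 with equal peak numbers, -1.14 with the stronger peaks, -2.90 by percentile and -0.894 to 1.79 with a DP library left out. Nr5a2 was 0.346 with equal peak numbers, and Tfcp2l1 -1.45 to 0.605. Against SOX2+ cells, Tbx3 was -4.84, -0.815 and -0.141 in the same settings and -0.522 to 2.17 with a library left out, Tfcp2l1 was 0.483 within 50 kb of the start and -1.25 to 0.805, and Nr5a2 was 2.42 with equal peak numbers. GATA6 at Tfcp2l1 was 2.40, 0.254 and 15.2 in those settings, and -1.99 to 0.631 with a library left out. H3K4me1 at Tfcp2l1 was 0.517 by the strongest peak. The cause of these changes was not tested. Short DP lists limit what could be seen.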
